A study of Homo sapiens with 12 samples.

Results

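The mitochondrial ribosomal protein genes encode the proteins of the ribosome inside mitochondria. Their symbols are MRPL, for the large subunit, and MRPS, for the small subunit, but MRPS18A and MRPS30 lie in the large subunit. The genes were taken as the protein-coding genes with an MRPL or MRPS symbol, a number and, for the MRPS18 paralogues, a letter. Of the 54127 genes in the count files, 74 were members, and 73 of them had enough reads to be tested. RNAseq was performed on C4-2 cells, an androgen-responsive prostate cancer line derived from LNCaP, in 6 DMSO and 6 PBKi libraries. PBKi (HI-TOPK-032) is a small molecule inhibitor of PDZ binding kinase (PBK) and was used at 1 µM for 6 h, and both groups were grown in RPMI medium with 10% serum. The comparison asked how transcripts responded to inhibition of the kinase. The labels number the replicates 1 to 6 in each group but do not say that they were separate cultures, so p-values measure the spread between these libraries, which may be technical.

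The mitochondrial ribosome makes a small set of proteins encoded by mitochondrial DNA, all of them subunits of the respiratory chain and ATP synthase. Its RNAs come from mitochondrial DNA, whereas all its proteins are encoded in the nucleus, made in the cytosol and imported. Many of these proteins have a counterpart in bacterial ribosomes, and the others arose in the mitochondrial lineage.

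PBKi lowered 26 of the 73 tested members and raised 1, MRPS6, at an adjusted p under 0.05 (quasi-likelihood test of edgeR, Benjamini-Hochberg correction over all 14505 genes tested). Over all genes tested, 21.5% were lower and 20.1% were higher, against 35.6% and 1.37% of the members. The falls were small, from 9.86% to 24.98% of the DMSO level among the members that passed. The median log2 fold change was -0.14 over the members and -0.01 over all genes, and 63 members had a negative value (86.3%, against 51.9% of all genes). In 8 of the 73 tested members every PBKi library lay below every DMSO library, a share near the 9.68% of all genes. In 0 members did every PBKi library lie above every DMSO library (10.5% of all genes). In bulk RNA, fewer cells with a transcript and less of it in each cell cannot be told apart.

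**Figure D1:**
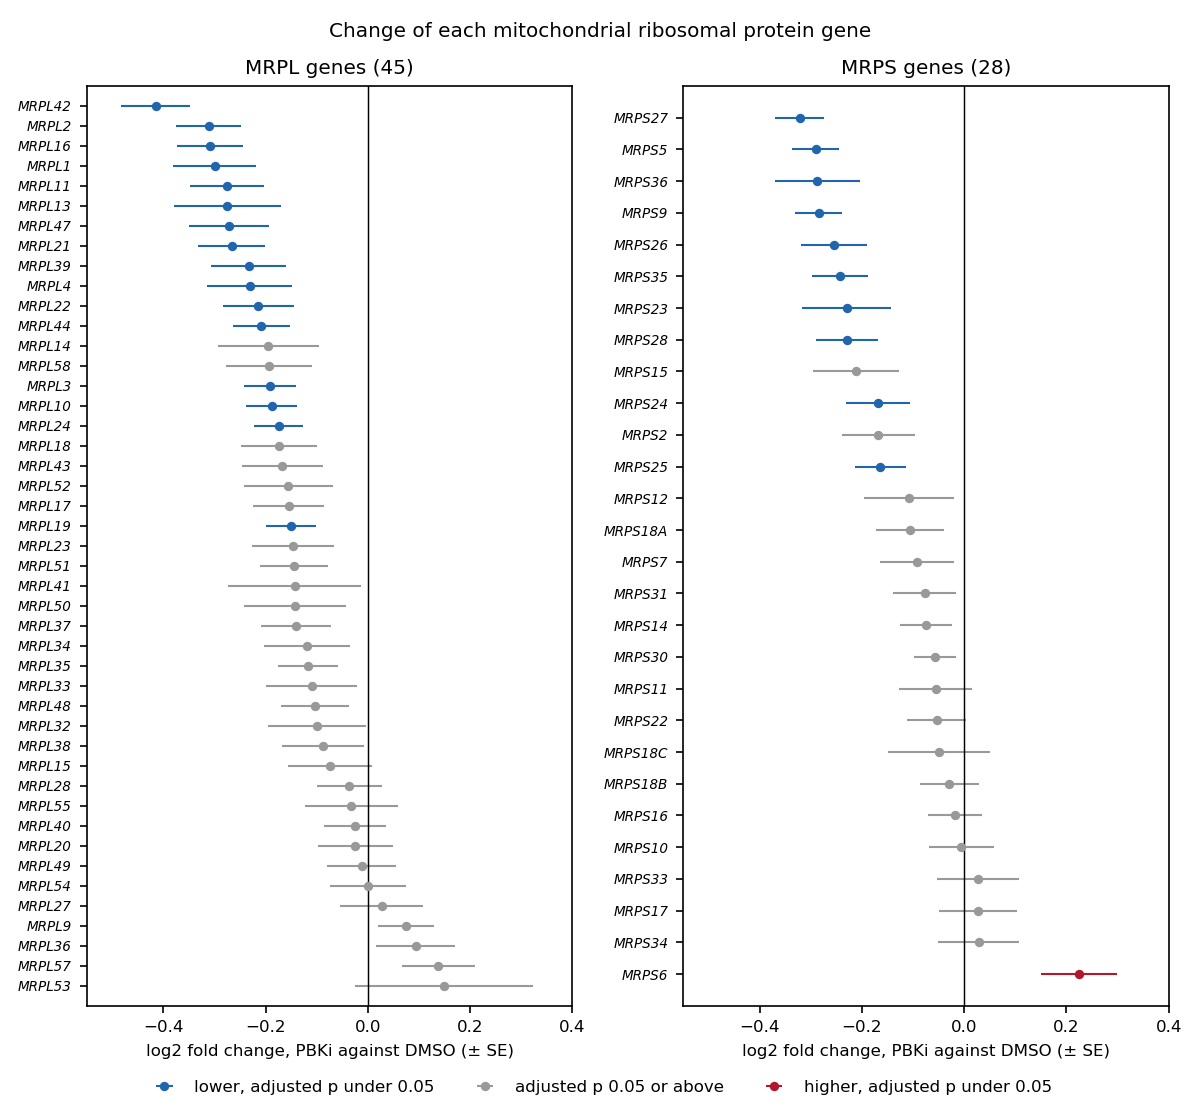
Log2 fold change of PBKi against DMSO (± SE, n = 6 libraries a group) for the 45 tested MRPL genes (left) and 28 tested MRPS genes (right), ordered by value. Blue points passed as lower (16 and 10 genes), the red point (MRPS6) passed as higher and grey points did not pass; most grey points also lie left of 0.

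Summed over all members, the normalised level in CPM, the read count scaled to library size with TMM factors, ran from 6054 through a median of 6871 to 7674 CPM in DMSO. In PBKi the sum ran from 5842 through 6288 to 6629 CPM. The ranges overlapped, since 2 DMSO libraries, replicates 4 and 6, lay among the PBKi libraries. The means were 6900 ± 578 CPM in DMSO and 6273 ± 260 CPM in PBKi (SD, n = 6 each). Reads on members numbered 63610 to 212785 per library, of 9663203 to 28029908 reads on genes. The number of reads on a single member was at least 119 in every library for all tested members except MRPL53.

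Promoter sequences are shown because many members carry the same short motif near the start of transcription, in genes that fell and in genes that did not. RefSeq windows from 250 bases before to 50 bases after the start (GRCh38.p14, a later build than the GRCh37 of the read counts) were found for 65 members. The letters CCGGAAG, a core bound by ETS-family factors such as GABPA, were present on either strand in 29 of these (44.6%), in 16.5% of the windows of all 15842 protein-coding genes and in 22.6% of the 10115 such genes tested. In 22 of the 29 members the letters began within 100 bases before the start. The lines give the 100 bases before the start, in the direction of transcription, with capitals for CCGGAAG or its reverse complement, and in MRPS26 also for GGGCGG (GC box). The first 4 genes were lower in PBKi and the last 3 did not pass.
MRPL47 (chr3:179604639-179604738, minus strand): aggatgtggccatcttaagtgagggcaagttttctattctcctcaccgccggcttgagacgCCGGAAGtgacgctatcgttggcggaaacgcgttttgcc
MRPL3 (chr3:131502972-131503071, minus strand): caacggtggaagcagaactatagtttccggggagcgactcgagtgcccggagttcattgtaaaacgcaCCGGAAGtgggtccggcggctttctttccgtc
MRPS26 (chr20:3045952-3046051, plus strand): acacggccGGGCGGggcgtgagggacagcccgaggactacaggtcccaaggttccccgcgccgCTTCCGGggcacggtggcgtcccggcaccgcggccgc
MRPS23 (chr17:57850045-57850144, minus strand): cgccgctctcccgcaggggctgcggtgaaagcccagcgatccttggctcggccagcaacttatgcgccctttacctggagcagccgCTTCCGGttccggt
MRPL20 (chr1:1407294-1407393, minus strand): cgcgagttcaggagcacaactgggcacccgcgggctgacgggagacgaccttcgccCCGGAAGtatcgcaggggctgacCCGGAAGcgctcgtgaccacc
MRPS10 (chr6:42217862-42217961, minus strand): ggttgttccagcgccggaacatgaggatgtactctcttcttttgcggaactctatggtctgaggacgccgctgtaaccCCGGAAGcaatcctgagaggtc
MRPS34 (chr16:1773135-1773234, minus strand): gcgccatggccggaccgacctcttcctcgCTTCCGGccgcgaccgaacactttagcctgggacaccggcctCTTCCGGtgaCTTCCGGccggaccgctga
Among tested members with CCGGAAG, 5 of 28 were lower with a median log2 fold change of -0.10, and among those without it 15 of 36 were lower with a median of -0.15. The motif was thus held by both called and uncalled members. A match is a description of letters, not a binding site.

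The letters AAGATGGCG, the core motif of YY1, were found in 12 of the 65 members (18.5%), in 3.21% of all windows and in 4.74% of tested genes. In 9 members they stood in the forward direction just after the start of transcription. The letters contain ATG, and whether this was the start codon of the protein was not examined. Of the 12 members with these letters, 3 were lower and 0 were higher, with a median log2 fold change of -0.10. Among the 52 tested members without them, 17 were lower, with a median of -0.14. Over all genes tested, 21.5% were lower. The motif was thus held by both called and uncalled members. The 3 that fell, MRPL42, MRPL22 and MRPS24, and the uncalled MRPS18B are shown as 30 bases with the motif in capitals.
MRPL42 (chr12:93467512-93467541, plus strand): ggattgaaacAAGATGGCGggttcgtggtg
MRPL22 (chr5:154941093-154941122, plus strand): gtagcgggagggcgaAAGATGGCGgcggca
MRPS24 (chr7:43869479-43869508, minus strand): cgcttggcccAAGATGGCGgcctccgtgtg
MRPS18B (chr6:30617853-30617882, plus strand): ggcgtacgtcAAGATGGCGgcgtctgtatt
Motifs of other factors were also counted. GCGCATGCG (NRF1) was found in 3 members (4.62%, against 3.11% of all windows and 4.32% of tested genes), and GCGCANGCG, which contains it, in 13 (20%, against 12.5% and 17.3%). The E-box CACGTG, bound by MYC and related factors, was found in 8 members (12.3%, against 10.9% and 12.8%). The GC box GGGCGG was found in 41 members (63.1%, against 64.3% of all windows and 77.4% of tested genes). Matches were sought on both strands, and matches of different motifs may share bases. MRPS9, which fell, holds GCGCANGCG and the GC box before its start, and MRPS6, which rose, holds the GC box alone. The capitals in the next lines mark those letters or their reverse complements.
MRPS9 (chr2:105037969-105038068, plus strand): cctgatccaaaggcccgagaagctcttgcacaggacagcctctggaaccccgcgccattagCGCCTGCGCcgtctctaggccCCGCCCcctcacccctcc
MRPS6 (chr21:34073478-34073577, plus strand): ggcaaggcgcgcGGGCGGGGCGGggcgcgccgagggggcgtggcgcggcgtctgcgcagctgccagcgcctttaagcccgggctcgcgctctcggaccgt

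MRPL42, a protein of the large subunit with no bacterial counterpart, showed the most negative value in the family. Its level was 137.2 CPM at the lowest, 163.9 at the median and 185 at the highest in DMSO. In PBKi it was 113.3, 124 and 127.9 CPM. All PBKi libraries lay below all DMSO libraries. The log2 fold change was -0.41 (SE 0.068, adjusted p = 0.000107 from edgeR). The gene (ENSG00000198015) lies on the plus strand of chromosome 12 from 93861290 to 93909990 in GRCh37. It has 5 named pseudogenes, and reads that align to more than 1 place were not counted, so its level is less certain than its change.

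Other genes of large-subunit proteins with bacterial counterparts followed. MRPL2, which sits near the peptidyl transferase centre, was 47, 58.3 and 61.3 CPM in DMSO (lowest, median, highest) and 42.8, 46.3 and 48.3 CPM in PBKi. The ranges met only through DMSO replicate 6, the lowest DMSO library. Its log2 fold change was -0.31 (SE 0.063, adjusted p = 0.000773), and KLC4, a kinesin light chain gene that shares part of its exons, fell too (-0.36, adjusted p = 0.000374).
MRPL16, a core protein that contacts tRNA, was 92.1, 104.3 and 120.7 CPM in DMSO and 80.8, 83.4 and 92.2 CPM in PBKi. The highest PBKi library was level with the lowest DMSO library. Its log2 fold change was -0.31 (SE 0.064, adjusted p = 0.000962), and its exons overlap no other counted gene.
MRPL1, the protein of the L1 stalk beside the exit site for tRNA, was 38.5, 44 and 52.9 CPM in DMSO and 30.7, 37.6 and 40.4 CPM in PBKi. The ranges overlapped at their ends. This gave a log2 fold change of -0.30 (SE 0.080, adjusted p = 0.00625).
MRPL11, at the base of the stalk that recruits translation factors, was 56.1, 70.9 and 79.4 CPM in DMSO and 53.9, 58 and 61.5 CPM in PBKi. The medians lay apart but the ranges overlapped. MRPL11 had a log2 fold change of -0.28 (SE 0.072, adjusted p = 0.00518).

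MRPL13, MRPL47 and MRPL21 completed the large-subunit genes among the 12 most negative called members. MRPL13 was 63.3 to 105.4 CPM in DMSO and 59.5 to 76.3 CPM in PBKi, with medians of 85.1 and 70.8. Its spread in DMSO was wide and its adjusted p was 0.0435 at a log2 fold change of -0.27 (SE 0.105). This call was lost without any 1 of DMSO replicates 1, 2 or 3 or PBKi replicates 3, 4, 5 or 6 (adjusted p from 0.0578 to 0.138).
MRPL47, at the rim of the exit tunnel, was 115.2, 132.5 and 162.4 CPM in DMSO and 103.6, 113.1 and 122.9 CPM in PBKi, with some overlap. Its log2 fold change was -0.27 (SE 0.077, adjusted p = 0.0093). ACTL6A, a chromatin remodelling subunit gene that shares 9.01% of the exon bases of MRPL47, had a log2 fold change of -0.42 (adjusted p = 0.000103), and reads were not stated to be counted by strand.
MRPL21 was 65.7, 76.2 and 88.3 CPM in DMSO and 59.5, 65.2 and 68.2 CPM in PBKi. Again only the ends of the ranges overlapped. MRPL21 had a log2 fold change of -0.27 (SE 0.065, adjusted p = 0.00326).

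Among small-subunit genes, MRPS27, a pentatricopeptide repeat protein found only in mitochondrial ribosomes, was 256, 268.9 and 284.5 CPM in DMSO and 202.9, 217.8 and 227.5 CPM in PBKi. A wide gap separated the groups. The log2 fold change was -0.32 (SE 0.048, adjusted p = 3.95e-05). MRPS27 (ENSG00000113048) lies on the minus strand of chromosome 5 from 71510780 to 71617544 in GRCh37.
MRPS5, a conserved protein on the path of the incoming mRNA, was 85.3, 88.6 and 93.3 CPM in DMSO and 68.8, 72.7 and 77.1 CPM in PBKi. These ranges did not overlap. MRPS5 had a log2 fold change of -0.29 (SE 0.046, adjusted p = 7.55e-05).
MRPS9, a conserved protein of the subunit's head, was 54.3, 60.1 and 62.1 CPM in DMSO and 47.9, 48.9 and 49.7 CPM in PBKi. The PBKi libraries were tightly grouped below all DMSO libraries. Its log2 fold change was -0.28 (SE 0.046, adjusted p = 0.000103), and 20.3% of its exon bases were shared with another counted gene.
MRPS36 carries a ribosomal name but is also known as a subunit of the oxoglutarate dehydrogenase complex. It was 26.6, 32.3 and 38.4 CPM in DMSO and 23.9, 26.7 and 29.7 CPM in PBKi, with overlap. MRPS36 had a log2 fold change of -0.29 (SE 0.083, adjusted p = 0.00997). It has 5 named pseudogenes.

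MRPS6, a conserved protein of the platform of the small subunit, was the single member that rose. In DMSO it was 25.7, 30.3 and 35.1 CPM and in PBKi 32.9, 35.5 and 38.5 CPM. The ranges overlapped, and within each set of replicates every PBKi library was above every DMSO library. The log2 fold change was 0.23 (SE 0.074, adjusted p = 0.0214), with 0.18 in replicates 1 to 3 (adjusted p = 0.0302) and 0.30 in replicates 4 to 6 (adjusted p = 0.0329). The call was lost without PBKi replicate 2 (adjusted p = 0.0527). SLC5A3, an inositol transporter gene that overlaps the MRPS6 locus on chromosome 21, also rose (log2 fold change 0.32, SE 0.093, adjusted p = 0.0101). Whether reads of one were counted to the other was not tested.

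**Figure D2:**
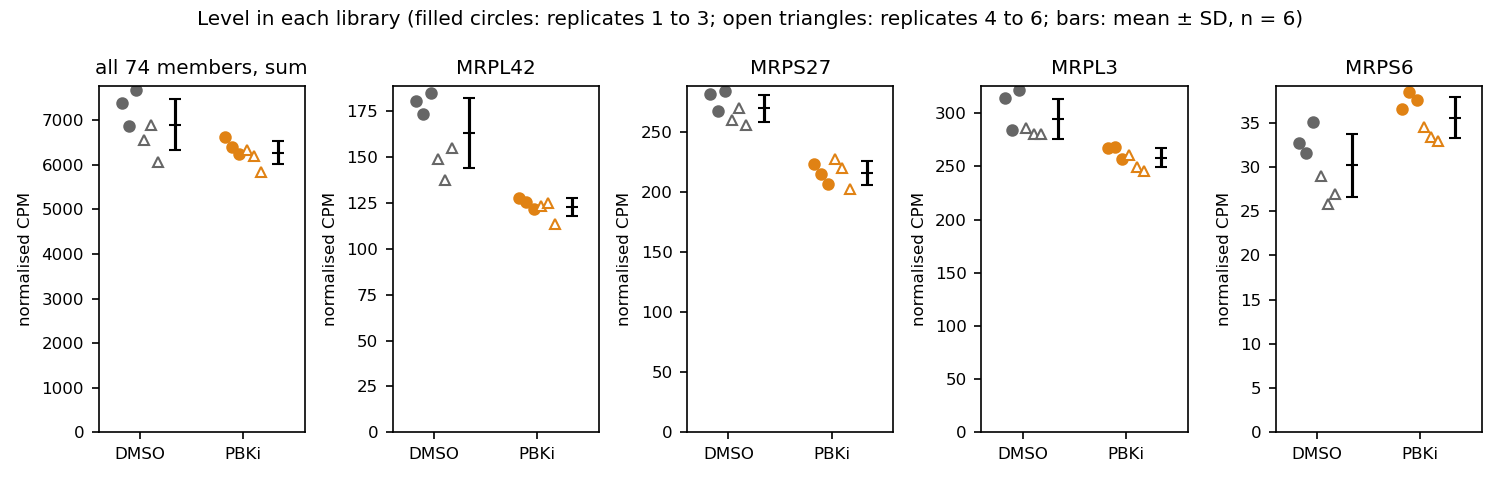
Normalised CPM in each library for the sum of all 74 members and for MRPL42, MRPS27, MRPL3 and MRPS6, each on its own axis from 0. Circles are replicates 1 to 3, triangles replicates 4 to 6 and bars mean ± SD (n = 6); MRPL42, MRPS27 and MRPL3 show no overlap between groups, whereas the sum and MRPS6 do.

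The other 14 members that fell had log2 fold changes between -0.25 (MRPS26) and -0.15 (MRPL19). MRPS35, MRPL44, MRPL3 and MRPL24 were without overlap between groups. MRPL3, a conserved protein near the catalytic centre and among the most abundant members, was 280.1, 285 and 321.7 CPM in DMSO and 246, 258.8 and 268.2 CPM in PBKi (log2 fold change -0.19, SE 0.050, adjusted p = 0.00564). MRPS35, a mitochondria-specific protein of the small subunit, was 193.2, 217.4 and 239.7 CPM in DMSO and 168, 183.3 and 188.8 CPM in PBKi (log2 fold change -0.24, SE 0.055, adjusted p = 0.00174). In both genes the highest PBKi library lay under the lowest DMSO library.
Small-subunit members among these were MRPS26 (-0.25, 56 to 72.6 CPM in DMSO and 48.9 to 57.2 CPM in PBKi), MRPS23 (-0.23, adjusted p = 0.0412), MRPS28 (-0.23, adjusted p = 0.00566) and MRPS25 (-0.16, adjusted p = 0.015). In each of these 4 the ranges overlapped, and 39.1% of the exon bases of MRPS25 were shared with NR2C2. Among large-subunit members, MRPL4 was 109.3, 132.2 and 167.8 CPM in DMSO and 106.7, 111.7 and 125.3 CPM in PBKi (-0.23, SE 0.084, adjusted p = 0.0347), with DMSO replicate 5 the highest and DMSO replicate 6 the lowest DMSO library. MRPL22 was 68.1, 79.5 and 91.7 CPM in DMSO and 65.2, 68.9 and 74.6 CPM in PBKi (-0.21, SE 0.069, adjusted p = 0.0194). Both overlapped. MRPL10, which anchors the stalk of the large subunit, had a log2 fold change of -0.19 (SE 0.049, adjusted p = 0.0053), and MRPL44, which has a ribonuclease III fold, of -0.21 (SE 0.056, adjusted p = 0.00611).

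The 46 members that did not pass were mostly on the same side of 0, with 37 negative values and a median log2 fold change of -0.08. MRPL58, a peptidyl-tRNA hydrolase built into the large subunit that frees stalled chains, had a value of -0.19 (SE 0.084, adjusted p = 0.0734). MRPL41 had a wide spread in DMSO, from 66.1 CPM in replicate 6 to 145.7 CPM in replicate 5, against 81.2 to 94.8 CPM in PBKi (-0.14, SE 0.130, adjusted p = 0.398). Positive values without a call included MRPL57 (0.14, SE 0.071, adjusted p = 0.129) and MRPL36 (0.09, SE 0.078, adjusted p = 0.353). MRPL57 was 143.1, 168.3 and 197.6 CPM in DMSO and 170.3, 190.2 and 198.4 CPM in PBKi, with most of the ranges shared. MRPL10, MRPL58, MRPL41, MRPL57, MRPL36 and the others of these paragraphs outside the naming rule were chosen after their values were seen.

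The MRPS18 paralogues are related genes whose products occupy different places, MRPS18A in the large subunit and the others in the small subunit. MRPS18A had a log2 fold change of -0.11 (SE 0.067, adjusted p = 0.215), MRPS18B of -0.03 (SE 0.058, adjusted p = 0.715) and MRPS18C of -0.05 (SE 0.100, adjusted p = 0.726). None of the 3 passed the test, and without DMSO replicate 3 the values of MRPS18B (0.0041) and MRPS18C (0.05) were above 0. Levels per kilobase of the canonical transcript in DMSO were 20.5 ± 1.19 CPM for MRPS18A, 103 ± 7.5 for MRPS18B and 10.2 ± 1.58 for MRPS18C (SD, n = 6). MRPS18B was thus the most abundant of the paralogues by a margin far beyond the spread. Exons of MRPS18A and MRPS18C are shared with other counted genes over 50.9% and 40.2% of their bases.

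By name, 16 of 45 tested MRPL genes were lower and 0 higher, with a median log2 fold change of -0.15. Of 28 MRPS genes, 10 were lower and 1 was higher, with a median of -0.10. By place in the ribosome, 16 of 47 large-subunit members were lower and 0 higher. Of 25 small-subunit members, 9 were lower and 1 was higher. Members with a bacterial counterpart gave 17 lower and 1 higher of 43 (median -0.15), and mitochondria-specific members 8 lower and 0 higher of 29 (median -0.14). MRPS36 was in neither class. Over all genes tested, 21.5% were lower and 20.1% higher.
Of a list of 7 tested members around the outer end of the tunnel through which new proteins leave, 5 were lower, namely MRPL22, MRPL24, MRPL39, MRPL44 and MRPL47, and all 7 had negative values (median -0.21). In the central protuberance, the crown of the large subunit, 0 of 7 were lower over all 12 libraries by edgeR, DESeq2 or limma-voom, and 1, MRPL18, had an unadjusted p under 0.05 in edgeR (median -0.09). In replicates 1 to 3 alone MRPL18 was lower (log2 fold change -0.25, adjusted p = 0.00284). Of the 4 tested members of the stalk that binds translation factors, MRPL10 and MRPL11 were lower. These regions were not compared with one another by a test.

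Members differed in how readily their reads can be assigned. Over all genes tested, 21.5% were lower. Of 33 tested members with a named pseudogene, 7 were lower (21.2%, near that share) and 1 was higher (median log2 fold change -0.07). Of 40 without one, 19 were lower (47.5%) and 0 higher (median -0.17). Of 12 members that shared more than 20% of their exon bases with another counted gene, 2 were lower (median -0.08), and of 41 with no shared bases, 15 were lower (median -0.15). The share of reads that overlapped more than 1 gene, which HTSeq leaves out, was 4.15% to 4.38% in DMSO and 4.51% to 4.63% in PBKi, without overlap. The part of pseudogenes, shared exons and this share in the members' values was not tested. MRPL53, with 72.8% of its exon bases in CCDC142, was only 1.98 ± 0.363 CPM in DMSO and 2.18 ± 0.511 CPM in PBKi (SD, n = 6; log2 fold change 0.15, SE 0.174, adjusted p = 0.52). MRPL30 had 0 to 4 counts per library and was not tested. The symbols MRPL12, MRPL45, MRPL46 and MRPS21 matched no gene of the count files and are not analysed here.

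Levels per kilobase of the canonical transcript in DMSO had a median of 61.5 CPM, with quartiles of 32.4 and 97.5 and extremes of 4 (MRPL53) and 214.6 (MRPL51). The most abundant large-subunit members were MRPL51 at 214.6 ± 22.2 and MRPL37 at 193.6 ± 21.8 CPM per kilobase, and the most abundant small-subunit members were MRPS15 at 188.9 ± 26.1 and MRPS24 at 123.3 ± 12.4 (SD, n = 6). MRPL51, MRPL37 and MRPS15 did not differ beyond their spread, whereas MRPS24 was below all of them. The order depends on the length used. Per kilobase of all annotated exons, MRPL41 was the highest member (167 CPM), followed by MRPL51 (138.8) and MRPL37 (112.7), and MRPS35 (111.6) and MRPS18B (81.9) exceeded MRPS15 (62.9) and MRPS24 (31.6). The log2 fold changes of MRPL51, MRPL37, MRPS15 and MRPS24 were -0.15 (adjusted p = 0.0879), -0.14 (adjusted p = 0.108), -0.21 (adjusted p = 0.0534) and -0.17 (adjusted p = 0.039) in that order, and MRPS24 passed the test. When the fit held a term for the replicate set (1 to 3 or 4 to 6), MRPS15 (adjusted p = 0.00994) and MRPL51 (adjusted p = 0.0327) passed too, and MRPL37 did not (adjusted p = 0.0754). In the fit with no such term, MRPS24 no longer passed on leaving out DMSO replicate 1, 3 or 5 or PBKi replicate 2, 3 or 6 (adjusted p from 0.068 to 0.101). Without DMSO replicate 6, MRPL51 (adjusted p = 0.0238) and MRPS15 (adjusted p = 0.00685) passed, and MRPS15 passed without PBKi replicate 2 (adjusted p = 0.0443). Without DMSO replicate 5 the value of MRPL37 was -0.09. Across the 73 members the level per kilobase and the log2 fold change had a Pearson r of -0.11 and a Spearman rho of -0.06, a description across genes that share the same libraries.

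The change was larger in replicates 1 to 3 than in replicates 4 to 6. The labels give no batch, but the second principal component of all genes (9.76% of the variance) set these replicates apart in both groups. In replicates 1 to 3 alone, 38 members were lower and 1 was higher, where 22% and 23.1% of all genes were lower and higher. In replicates 4 to 6 alone, 4 of the 73 members were lower (MRPL42, MRPS27, MRPS5 and MRPS9), a smaller share than the 8.32% of all genes. MRPS6 alone was higher, where 8.78% of all genes were. The 4 lower members were also lower in replicates 1 to 3. The median log2 fold change was -0.17 in the first set and -0.07 in the second, and 61 of 73 members were more negative in the first.
A test of the difference between the sets, an interaction term in edgeR, called 0 members and 0% of all genes at an adjusted p under 0.05. At an unadjusted p under 0.05 it named 8 members (11.0%) and 4.83% of all genes. The smallest of these belonged to MRPL14, a conserved protein at the interface of the subunits, which had a log2 fold change of -0.37 in replicates 1 to 3 and 0.04 in replicates 4 to 6 (unadjusted p = 0.00366, adjusted p = 0.927). It was chosen for mention after its values were seen.
The DMSO libraries themselves differed between the sets. In 33 members all of DMSO replicates 1 to 3 lay above all of DMSO replicates 4 to 6, and in 0 members the reverse. For PBKi the numbers were 20 and 1. These counts were not made over all genes, so they do not show a trait particular to the members. The summed level was 7305 ± 412 CPM in DMSO replicates 1 to 3 and 6496 ± 417 CPM in DMSO replicates 4 to 6 (SD, n = 3 each), against 6421 ± 195 and 6125 ± 254 CPM in the PBKi libraries of the same numbers. The part of this set difference in the members' change was not tested.

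**Figure D3:**
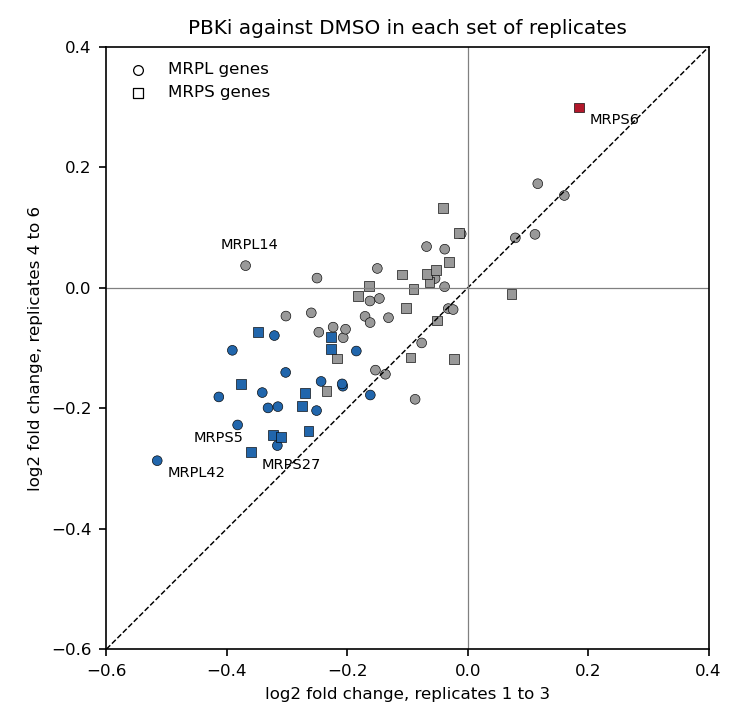
Log2 fold change of each of the 73 members in replicates 1 to 3 (horizontal) and in replicates 4 to 6 (vertical), with circles for MRPL and squares for MRPS genes, blue for members lower and red for MRPS6, higher, over all 12 libraries. The dashed line marks equal change; 61 members lie above it, and Pearson r across members was 0.77.

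**Figure D4:**
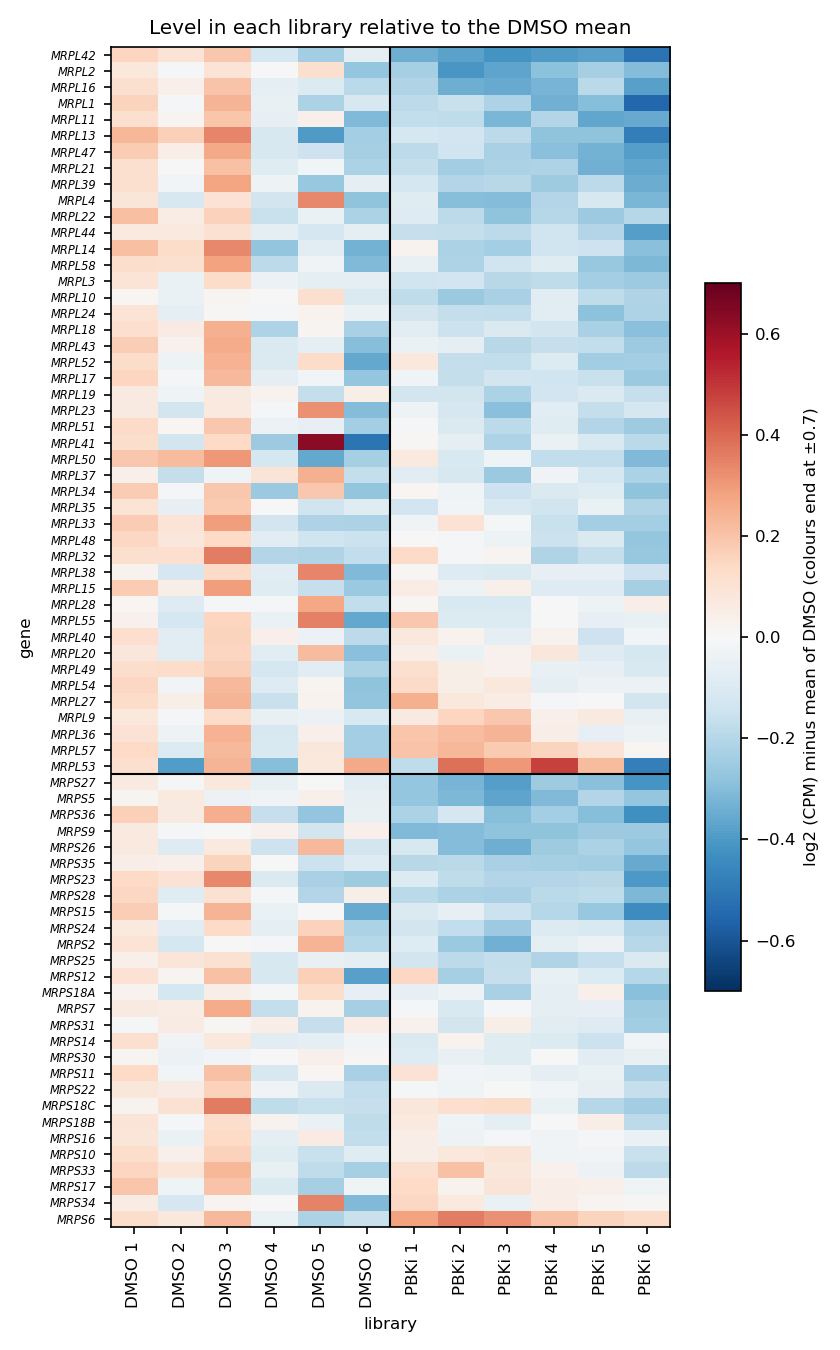
Log2 CPM of each tested member in each of the 12 libraries minus its mean in DMSO, MRPL genes above and MRPS genes below the line, each ordered by log2 fold change. DMSO replicates 1 and 3 are mostly red, DMSO replicate 6 and the PBKi libraries mostly blue, and the MRPS6 row at the bottom is red in PBKi.

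Genes for other proteins of the mitochondrial ribosome, without an MRPL or MRPS symbol, numbered 5, of which PTCD3 was lower. PTCD3, a pentatricopeptide repeat protein of the small subunit, was 156.1 to 208.5 CPM in DMSO and 121.3 to 148.3 CPM in PBKi. Its groups did not overlap, and its log2 fold change of -0.48 (SE 0.070, adjusted p = 3.32e-05) was more negative than that of any member. DAP3, AURKAIP1, CHCHD1 and GADD45GIP1 did not pass.

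Assembly and rRNA maturation factors did not move in a single direction. Of 27 tested, 6 were lower (22.2%) and 3 higher (11.1%), with a median log2 fold change of 0.01. Over all genes tested, 21.5% were lower and 20.1% higher. METTL17, needed for assembly of the small subunit, was 42.4 to 50.3 CPM in DMSO and 31.1 to 36.7 CPM in PBKi, without overlap (log2 fold change -0.43, SE 0.061, adjusted p = 2.38e-05). YBEY, an endoribonuclease of small-subunit maturation, rose from 6.24 to 8.08 CPM in DMSO to 8.27 to 10.0 CPM in PBKi, also without overlap (0.38, SE 0.086, adjusted p = 0.002).

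Of 16 mitochondrial translation factors, 5 were lower and 0 higher (median -0.09), where 21.5% and 20.1% of all genes were. SLIRP, which with LRPPRC stabilises mitochondrial mRNAs, had the most negative value (-0.39, SE 0.099, adjusted p = 0.0044). The other 4 were LRPPRC, the elongation factors TUFM and TSFM, and MTFMT, which formylates the initiator methionyl-tRNA. Of 20 genes that charge mitochondrial tRNAs, 6 were lower and 0 higher (median -0.05). Of 10 genes for copying and transcribing mitochondrial DNA, 3 were lower and 0 higher (median -0.09). These were POLG2, the accessory subunit of the mitochondrial DNA polymerase (-0.43, SE 0.115, adjusted p = 0.00626), the DNA packaging and transcription factor TFAM (-0.37, adjusted p = 3.77e-05) and the transcription factor TFB2M (-0.23, adjusted p = 0.0378).

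Of 9 nuclear regulators linked to mitochondrial gene expression, 4 were lower and 0 higher (median -0.16), where 21.5% and 20.1% of all genes were. MYC was 373.8 to 418.8 CPM in DMSO and 214 to 263 CPM in PBKi, without overlap (-0.73, SE 0.055, adjusted p = 1.79e-08). GABPA, the DNA-binding subunit of an ETS-family factor, was 49.9 to 60.1 CPM in DMSO and 39.9 to 45.4 CPM in PBKi (-0.40, SE 0.056, adjusted p = 2.17e-05). YY1 was 169.6 to 204.9 CPM in DMSO and 144.3 to 168.1 CPM in PBKi (-0.21, SE 0.059, adjusted p = 0.00729), and the nuclear receptor ESRRA passed as well (-0.23, adjusted p = 0.039). NRF1 had a log2 fold change of 0.03 (SE 0.061, adjusted p = 0.772). Whether any of these regulators acted on the members was not tested.

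RNAs encoded by mitochondrial DNA went the other way from most transcripts of the mitochondrial ribosomal protein genes. Protein levels were not measured here. All 13 mRNAs and both rRNAs rose, the mRNAs with a median log2 fold change of 0.88 (0.73 to 1.00). The rRNA MT-RNR2 of the large subunit was 483.6 to 1361 CPM in DMSO and 761.4 to 2705 CPM in PBKi, with wide overlap (1.04, SE 0.251, adjusted p = 0.00297). MT-ND1, a subunit of complex I, was 178.2 to 514.2 CPM in DMSO and 356.1 to 970.1 CPM in PBKi (1.00, SE 0.218, adjusted p = 0.00145). Groups overlapped in all 13 mRNAs. Their median was 1.23 in the first 3 replicates and 0.40 in the last 3, where 0 of the 13 passed in edgeR and 2 had an unadjusted p under 0.05. Of the 2 rRNAs, 0 passed in the last 3 replicates. The interaction term in edgeR had an unadjusted p under 0.05 in 10 of the 13 mRNAs (4.83% of all genes) and an adjusted p under 0.05 in 0. The paper names a TruSeq mRNA kit for the libraries, and its part in these values was not tested. With the mitochondrially encoded genes left out of the library sizes, 26 members were lower and 1 was higher, as with them.

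**Figure D5:**
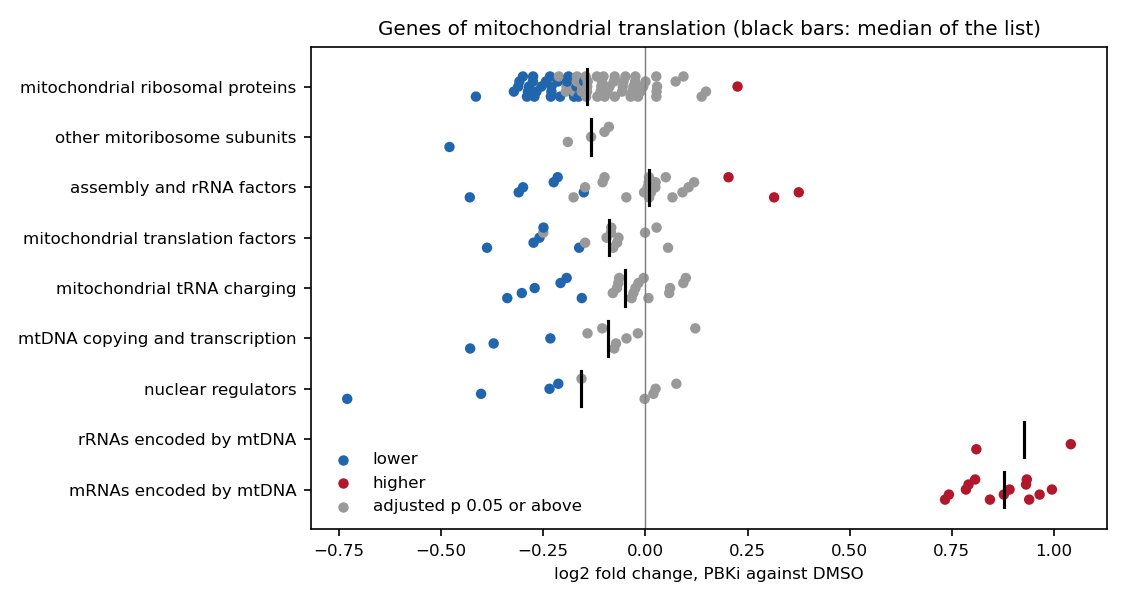
Log2 fold change of PBKi against DMSO for single genes in 9 groups, with a black bar at each median. The mitochondrial ribosomal protein genes lie mostly below 0 (median -0.14), the RNAs encoded by mitochondrial DNA all above 0.7, and the assembly factor genes on both sides.

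Cytosolic ribosomal protein genes, matched by symbol as a comparison, were lower in 74 of 81 and higher in 1, with a median log2 fold change of -0.33 against -0.14 for the mitochondrial set. Both values come from the same libraries and the difference was not tested. PBK itself had a log2 fold change of -0.42 (SE 0.095, adjusted p = 0.00194), which is no check of the treatment since the compound acts on the kinase. All 9 markers of luminal prostate cells were detected, with at least 1118 counts in any library. Of these 9, 5 were lower in PBKi, namely KLK3 (log2 fold change -1.39), TMPRSS2 (-1.24), HOXB13 (-0.60), FOXA1 (-0.34) and KRT18 (-0.21), and FOLH1 was higher (0.33). Their part in the members' values was not tested. Of 11 markers of other cell types, 10 had a row and their sum was 22.7 to 27.8 CPM in DMSO and 21.1 to 26.3 CPM in PBKi, mostly COL1A1 and VWF, with at most 11 counts per library for each of the other 8. VWF was lower (log2 fold change -0.50, SE 0.156, adjusted p = 0.0155) and COL1A1 did not pass (0.09, adjusted p = 0.38). The share of reads outside genes ranged over 5.98% to 7.25% in the DMSO libraries and 6.21% to 9.71% in the PBKi libraries. It was highest in PBKi replicates 3 and 6, and without those libraries 18 members were lower and 0 higher.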

How the data were processed

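RNAseq libraries of C4-2 cells were single-end and aligned by the authors to GRCh37 with TopHat 2.0.4. The deposited values are raw counts of reads per gene and lane from HTSeq 0.5.3p9, without normalisation. Whether counting used strand is not given in the sources used here. Counts were summed over the 47 lane files into 12 libraries. A gene was kept when 6 or more libraries held at least 10 counts (14505 genes). PBKi was compared with DMSO by edgeR 4.0.16 (R 4.3.3, quasi-likelihood test, TMM, no covariates, all 12 libraries) with Benjamini-Hochberg adjustment at 0.05. SE was derived from the F statistic. Rows naming no gene (5.98% to 9.71% of reads outside genes, 4.15% to 4.63% on more than 1 gene) stayed out of library sizes. Symbols and coordinates came from GENCODE 44 lifted to GRCh37.

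Members and lists were chosen with earlier results of these data known. Named members were the 12 most negative and up to 8 most positive called, the MRPS18 paralogues, the 2 MRPL and 2 MRPS genes highest per kilobase, and for each list its extreme called genes. A few others are named beside counts. One gene that the rule names is not reported here. On simulated counts for 14505 genes the test recovered 82.5% of 200 changed genes (73.2% at log2 0.5 and 91.3% at log2 1). All members had values smaller than 0.5 in size, and recovery at such sizes was not tested. Alternatives were DESeq2 1.42.0, limma-voom (limma 3.58.1), RLE factors, count filters, thresholds, lanes 6 to 8, a replicate block, replicate sets and leaving out libraries. Depth was 9663203 to 28029908 reads on genes per library, and the median total count of a tested member was 15520.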

Additional observations from a re-analysis of the deposited data

Results flagged for a closer look

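MRPL2 in DMSO replicate 6, at 47.0 CPM, lay far below the other 5 DMSO libraries. It was the only case among 64 groups of 6 libraries examined with Dixon's test at its 95% critical value, a test that flags about 1 in 20 groups by chance. The share of reads that overlapped more than 1 gene, which is outside the gene counts, was 4.51% in the lowest PBKi library, above every DMSO library.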

How the results depend on the processing

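Large-subunit and small-subunit members are counted here by MRPL and MRPS symbol. The counts of members were 26 lower and 1 higher. They stayed within 1.5 times the lower count with RLE factors, DESeq2, limma-voom, other count filters, lanes 6 to 8, a set covariate, a threshold of 0.01 and without PBKi replicates 3 and 6. With replicates 4 to 6 alone 4 were lower (large subunit 1, small subunit 3, other lists 10 lower and 1 higher; median of the members -0.069), and with replicates 1 to 3 alone 25 large-subunit members were lower. With a log2 fold change of at least 0.5, 0 members were lower or higher. The single higher member was lost (0) at 0.01 and without PBKi replicates 3 and 6. With each library left out, 18 (without DMSO replicate 3) to 35 (without DMSO replicate 6) members were lower and 0 to 2 higher, large-subunit members were 11 to 23 lower and 0 to 1 higher, small-subunit members 7 to 12 lower and 0 to 1 higher, other lists 20 to 28 lower and 15 to 20 higher, and the median was -0.17 to -0.10. Without PBKi replicate 2 the count of higher members was 0, and without DMSO replicate 3 it was 2. Of single named members under single alternatives, 32 lost their call, 11 gained one and 437 stayed as in the main fit, whether called or not. For other named genes 6 lost it and 224 stayed the same. The cause of these differences was not tested.

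With the replicate number as a block, 34 members were lower and 2 higher (1 of them in the large subunit), with a median of -0.14, and MRPL51 (adjusted p = 0.0237), MRPL37 (0.0363), MRPS15 (0.00254) and MRPL18 (0.0172) passed in edgeR. Same-numbered libraries deviated from their group means with correlations of 0.0887 to 0.299, all positive but not all above 0.1. The labels do not say whether same-numbered libraries were prepared together, and these values cannot settle it. Of 6 DMSO libraries, 4 correlated best with their own number. Levels per union exon length, an alternative added after seeing the data, gave a median of 28.2 CPM per kilobase. Small changes were hard to detect, since the median SE was 0.071 on the log2 scale against a median change of -0.14.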
